A study of Homo sapiens with 5 samples.

Results

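The 9 genes studied here, whose inherited disorders arise when a short tandem repeat lengthens, were examined for replication origins. They were HTT, ATXN1, ATXN2, ATXN3, ATXN7, CACNA1A, DMPK, FMR1 and C9orf72. These were taken by name from 20033 protein-coding gene records of GENCODE on hg38. An origin or peak was assigned to a gene when it overlapped the gene record or lay within 10 kb of its 5′ end, and its side and distance were measured from the expandable repeat tract, with upstream and downstream given on the sense strand. The data were 4 deposited lists from EJ30, an established human bladder carcinoma cell line. In ini-seq 2, nuclei isolated from EJ30 cells held in late G1 phase by mimosine were incubated in a cytosolic extract of HeLa cells with bromo-dUTP, and newly replicated heavy-light (HL) DNA was separated from unreplicated light-light (LL) DNA by density. One list came from a reaction of 3 hours (23905 origins) and the other from a reaction of 15 minutes, which its label calls a control (10181 origins). In short nascent strand sequencing (SNS-seq), nascent strands of 0.5 to 2 kb (147657 peaks) and of 2 to 4 kb (184966 peaks) were purified from the same line. Each condition is represented by 1 list, so the values below carry no spread between replicates and no test compares conditions. The lists hold no counts, and the depth behind an origin is unknown.

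A replication origin is a site where DNA synthesis starts and from which forks travel in both directions. Whether a fork enters a repeat from one side or the other decides which repeat strand is copied as the lagging strand, and the distance and side of the nearest origin have long been studied as influences on whether such tracts lengthen or shorten. Fork direction was not measured here. CAG tracts inside coding sequence encode polyglutamine, whereas tracts in untranslated regions and introns act through the RNA, through silencing of the promoter or through repeat-encoded peptides.

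The tracts were located in the hg38 reference sequence, which carries unexpanded alleles. The lengths of the alleles in EJ30 are not known. The sequences below show what lies at the measured positions, on the sense strand of each gene from 5′ to 3′, with the tract in capitals and up to 30 flanking bases in lower case, clipped at the edge of the coding exon. Only the first 30 bases of the DMPK and FMR1 tracts are shown.
HTT, chr4:3074847-3074969: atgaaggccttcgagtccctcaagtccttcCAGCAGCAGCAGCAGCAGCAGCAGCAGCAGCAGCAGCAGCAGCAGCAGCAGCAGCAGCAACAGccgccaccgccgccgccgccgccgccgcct
ATXN1, chr6:16327606-16327752: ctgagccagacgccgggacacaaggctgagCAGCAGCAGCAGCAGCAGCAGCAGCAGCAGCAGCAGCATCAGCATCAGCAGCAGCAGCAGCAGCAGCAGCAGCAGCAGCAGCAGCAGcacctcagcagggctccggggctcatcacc
ATXN2, chr12:111598921-111599034: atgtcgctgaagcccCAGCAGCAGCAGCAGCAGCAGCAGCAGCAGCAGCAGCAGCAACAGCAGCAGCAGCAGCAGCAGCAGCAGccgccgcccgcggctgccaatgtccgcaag
ATXN3, chr14:92070981-92071053: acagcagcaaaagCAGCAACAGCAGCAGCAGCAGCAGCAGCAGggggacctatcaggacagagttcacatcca
ATXN7, chr3:63912656-63912745: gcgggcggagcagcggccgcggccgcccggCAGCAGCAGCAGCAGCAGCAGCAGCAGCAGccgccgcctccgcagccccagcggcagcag
CACNA1A, chr19:13207829-13207927: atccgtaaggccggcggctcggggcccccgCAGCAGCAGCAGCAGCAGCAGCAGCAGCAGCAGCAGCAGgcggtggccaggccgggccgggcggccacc
DMPK, chr19:45770235-45770264: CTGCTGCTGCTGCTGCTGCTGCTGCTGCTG
FMR1, chrX:147912051-147912080: CGGCGGCGGCGGCGGCGGCGGCGGCGGCGG
C9orf72, chr9:27573499-27573576: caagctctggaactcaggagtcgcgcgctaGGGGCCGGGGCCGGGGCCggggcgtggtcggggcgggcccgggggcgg

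The longest uninterrupted runs were 19 CAG units in HTT, 14 in ATXN1, 13 in ATXN2, 8 in ATXN3, 10 in ATXN7 and 13 in CACNA1A, all in coding sequence. DMPK held 20 CTG units in its 3′ untranslated region, FMR1 10 uninterrupted CGG units at the start of a tract of 20 units in its 5′ untranslated region, and C9orf72 3 GGGGCC units in an intron. Among the CAG tracts, those of HTT (21 units in all), ATXN1 (29), ATXN2 (23) and ATXN3 (10) carried interrupting units, CAT in ATXN1 and CAA in the others. The tracts lay at very different places in their genes. FMR1, C9orf72 and ATXN2 had the tract 132, 320 and 657 bp from the 5′ end of the gene record, ATXN1 and CACNA1A 434 and 425 kb from it. The HTT tract lay 33.5 kb from the 5′ end of the record but 196 bp from the start of the canonical transcript, and for this reason both positions were used throughout.

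Of the 9 repeat tracts 7 touched an origin after 15 minutes and 5 after 3 hours. The 5 were HTT, ATXN2, ATXN7, CACNA1A and DMPK, and all 5 also touched a 15-minute origin. FMR1 and C9orf72 touched an origin at 15 minutes but not at 3 hours. ATXN1 and ATXN3 touched one at neither time. In SNS-seq the tracts of 8 of the 9 genes touched a peak, the same 8 in the 0.5 to 2 kb fraction and in the 2 to 4 kb fraction, and the exception was ATXN3.

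**Figure D1:**
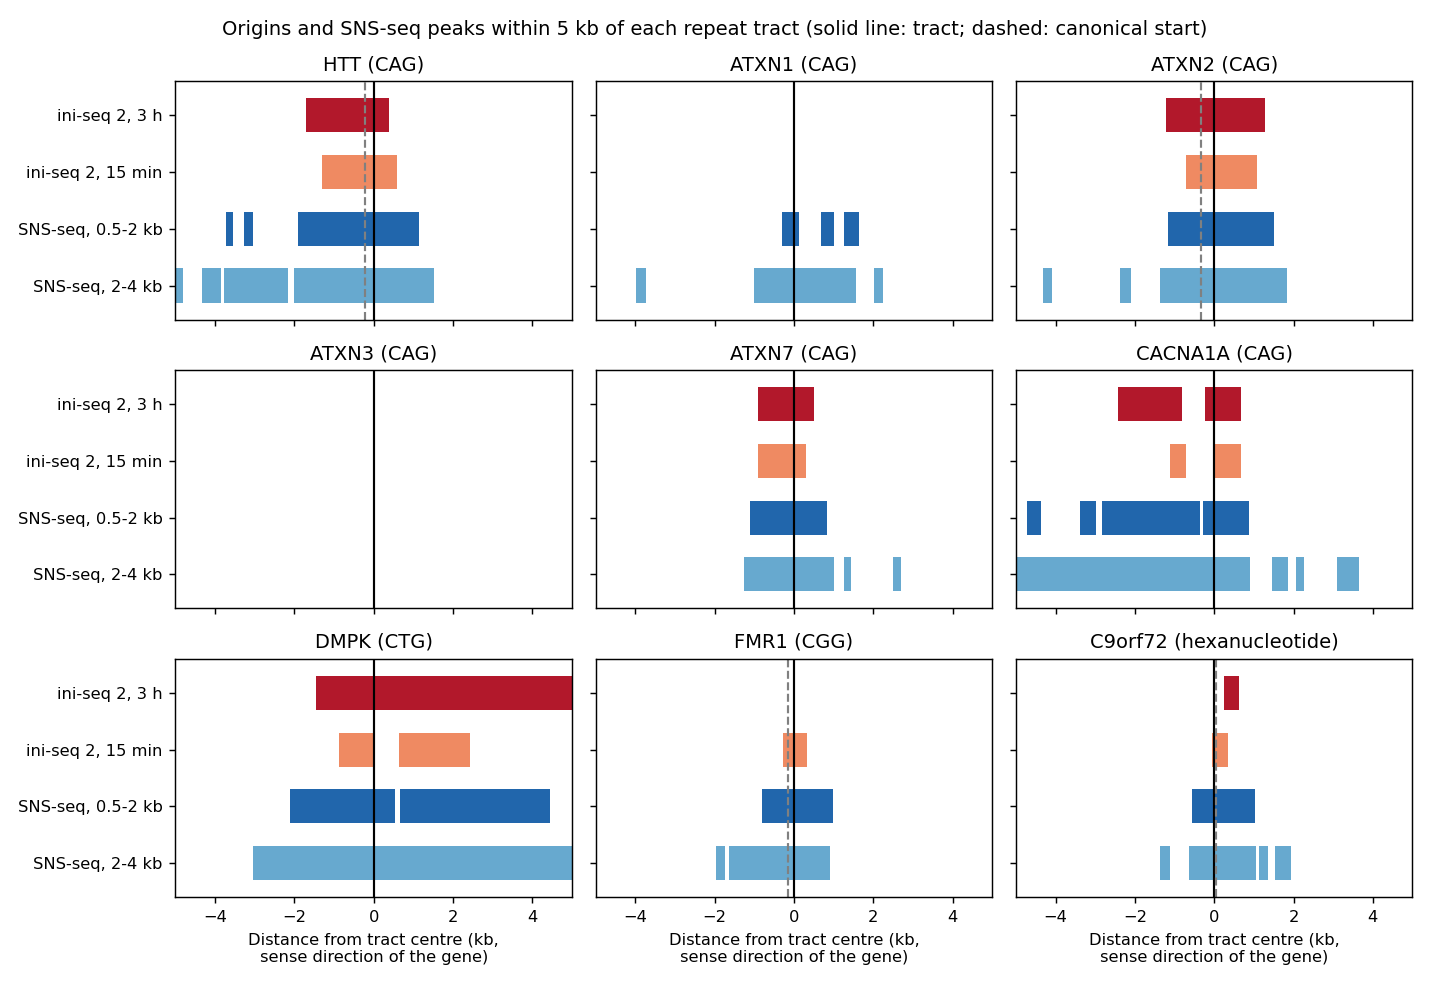
Intervals of the 4 lists within 5 kb of each repeat tract, with the distance from the tract centre in kb on the horizontal axis (sense direction of the gene, upstream to the left) and 1 row per list. The solid line marks the tract and the dashed line the canonical transcript start where it is in view. Bars cut at the panel edge continue beyond it. The ATXN3 panel holds no interval, ATXN1 holds SNS-seq peaks alone and FMR1 lacks the 3-hour row.

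At the level of whole genes, 8 of the 9 had at least 1 origin of the 3-hour list (21 origins in all), against 69.0% of all protein-coding genes, and all 9 had at least 1 origin of the 15-minute list (12 origins in all), against 49.9%. All 9 genes had SNS-seq peaks in both fractions, where the shares of all protein-coding genes were 87.2% and 87.0%. These shares were not matched for gene length, and a longer record has more room for an interval. The records of the 9 genes ranged from 12.8 kb in DMPK to 462 kb in ATXN1. The canonical transcript start lay in a 3-hour origin in 7 of the 9 genes (all but FMR1 and C9orf72; 50.9% of all protein-coding genes) and in a 15-minute origin in 7 of the 9 (all but CACNA1A and DMPK; 34.2%). It lay in an SNS-seq peak in 9 of 9 genes in each fraction (52.7% and 67.2%). With the 5′ end of the gene record in place of the canonical start, the counts were 4 of 9 at 3 hours (42.5%) and 3 of 9 at 15 minutes (26.7%), with the record beginning upstream of the canonical start in every gene but FMR1.

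**Figure D2:**
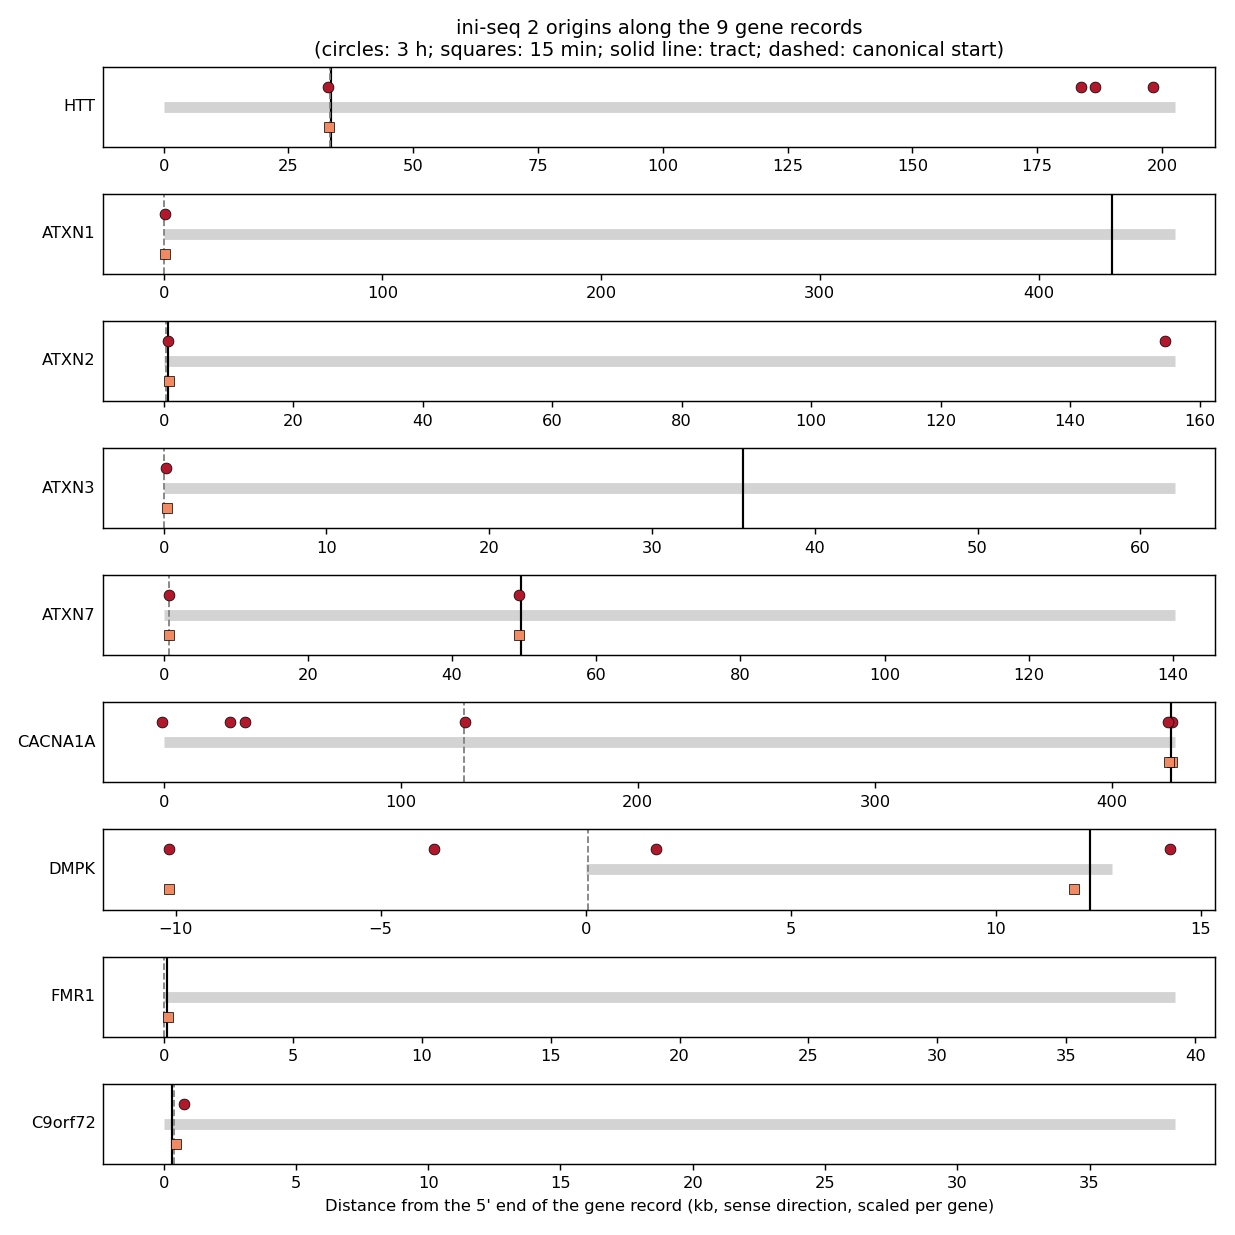
Centres of the ini-seq 2 origins along the 9 gene records (grey bars), with the distance from the 5′ end of the record in kb on the horizontal axis, scaled separately for each gene. Circles are 3-hour origins, squares 15-minute origins, the solid line is the tract and the dashed line the canonical start. In HTT, ATXN2, FMR1 and C9orf72 the tract and the canonical start fall together, while ATXN7, CACNA1A and DMPK carry a 3-hour origin at each of them. The centre of the 6800 bp origin over the DMPK tract falls beyond the end of the record.

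The HTT gene, which encodes huntingtin, had its tract and its canonical start in 1 and the same origin. The 3-hour origin (chr4:3073201-3075300, 2100 bp) had an efficiency of 0.94, where efficiency is HL/(HL + LL) and the list runs from 0.80 to 1. It ranked at percentile 83.7 of the 3-hour list and belonged to the high class when the list was divided into 3 classes of equal size at efficiencies of 0.842 and 0.907. The origin reached 1676 bp upstream and 361 bp downstream of the tract, and it also covered the start of the antisense gene HTT-AS. After 15 minutes the origin (chr4:3073601-3075500, 1900 bp) had a Z-score of -0.21, at percentile 41.8 of its list, in which Z-scores have a median of 0.03. The SNS-seq peaks over the tract were 3045 bp and 3520 bp long. Another 3 HTT origins of the 3-hour list lay in introns 150.0, 153 and 164 kb downstream of the tract, with efficiencies of 0.82, 0.86 and 0.87, and none of these had a 15-minute counterpart. In HTT the most efficient origin of the gene was thus the one on the repeat, while the nearest origin upstream of it lay 111 kb away.

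ATXN2, an RNA-binding protein of stress granules, resembled HTT in having the tract near the start of the first coding exon. The 3-hour origin (chr12:111597701-111600200, 2500 bp) had an efficiency of 0.93, in the high class at percentile 79.6. It was nearly centred on the tract, reaching 1181 bp upstream and 1250 bp downstream, and it held both the canonical start and the start of ATXN2-AS. The 15-minute origin (chr12:111597901-111599700, 1800 bp) had a Z-score of 0.44, at percentile 64.3. SNS-seq peaks of 2668 and 3180 bp covered the same ground. A second 3-hour origin of 400 bp lay 154 kb downstream near the 3′ end of the gene, with an efficiency of 0.85.

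In ATXN7, a subunit of the SAGA chromatin-modifying complex, the tract lay 48.8 kb downstream of the canonical start and had an origin of its own. The origin over the tract (chr3:63911801-63913200, 1400 bp at 3 hours) had an efficiency of 0.96 at percentile 93.2, and its 15-minute counterpart of 1200 bp had a Z-score of 0.81 at percentile 76.0. The origin over the canonical start (chr3:63863201-63864600, 1400 bp), which also covered the start of the divergent neighbour THOC7, had an efficiency of 0.94 and a Z-score of 1.31 at percentile 89.9. The order of these 2 origins was thus opposite at the 2 times, with no replicate error to set beside either difference. Both 3-hour origins were in the high class. The SNS-seq peaks over the tract were 1949 and 2277 bp long.

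CACNA1A encodes the pore-forming subunit of the P/Q-type calcium channel, and its tract lies in the last coding exon, 299 kb downstream of the canonical start. The origin over this tract (chr19:13207201-13208100, 900 bp) had an efficiency of 0.97, at percentile 97.5, which was the highest of the 21 origins. At 15 minutes the origin (chr19:13207201-13207900, 700 bp) had a Z-score of 0.00 at percentile 49.0, and it reached 3 bp upstream of the tract and 658 bp downstream of it. A second origin lay 803 bp upstream of the tract (1600 bp, efficiency 0.84), with a 15-minute counterpart of 400 bp at a Z-score of -1.29. At the canonical start the 3-hour origin (chr19:13505601-13506500, 900 bp) had an efficiency of 0.86 and no 15-minute origin overlapped it. The other 3 origins lay 390.3 to 425.6 kb upstream of the tract, with efficiencies of 0.83 to 0.87. The most efficient CACNA1A origin was therefore at the far end of the gene, on the repeat. For this long gene SNS-seq gave 66 peaks in the 0.5 to 2 kb fraction and 75 in the 2 to 4 kb fraction. The counts were 25 and 30 in HTT and 8 and 9 in DMPK. They include peaks outside the gene record within 10 kb of its 5′ end, so they are not densities over the gene. The peaks over the CACNA1A tract were 1154 and 6379 bp long.

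ATXN1 and ATXN3 were the polyglutamine genes without an ini-seq 2 origin on the tract. ATXN1, a transcriptional co-repressor, had 1 origin at each time, both over its start and that of ATXN1-AS1. The 3-hour origin (chr6:16759901-16762200, 2300 bp) had an efficiency of 0.94 at percentile 84.8, and the 15-minute origin of 2100 bp a Z-score of -0.25. These lay 432 kb upstream of the tract. The nearest 3-hour origin to the tract was on its other side, 147 kb downstream (300 bp, efficiency 0.94), outside the gene. The nearest 15-minute origin was 88.7 kb downstream, over the start of GMPR. SNS-seq did give peaks on the ATXN1 tract, of 433 bp in the 0.5 to 2 kb fraction and 2556 bp in the 2 to 4 kb fraction. The 433 bp peak was the shortest of the 8 peaks on tracts in its fraction, whose median length was 1876 bp.

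ATXN3, a deubiquitinase, had no interval of any list on its tract. Its single origin covered the start of the gene (chr14:92106201-92106700, 500 bp), 35.2 kb upstream of the tract, with an efficiency of 0.96 at percentile 91.8. The same site at 15 minutes (400 bp) had a Z-score of -1.13 at percentile 15.4, so that it ranked high in 1 list and low in the other. On the downstream side a low-class 3-hour origin (efficiency 0.83) lay 30.7 kb from the tract, outside the gene, with no 15-minute counterpart. The nearest SNS-seq peaks were 17.4 kb upstream (174 bp, 0.5 to 2 kb fraction) and 30.7 kb downstream (224 bp, 2 to 4 kb fraction). ATXN3 was also set apart by base composition: the 1 kb centred on its tract held 40.3% GC, while the other 8 tracts lay in 63.1% to 78.8% GC.

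Among the genes with a noncoding tract, DMPK encodes a protein kinase of muscle, and its CTG repeat lies in the 3′ untranslated region next to the SIX5 promoter. The 3-hour origin over the tract (chr19:45764901-45771700) was 6800 bp long, a length reached by 0.331% of 3-hour origins, and it covered the starts of SIX5, a homeobox gene, and DM1-AS. Its efficiency was 0.89, in the medium class at percentile 60.6. The tract sat 1436 bp from the upstream edge of this origin and 5304 bp from the downstream edge. At 15 minutes the same stretch was divided. One origin of 900 bp (chr19:45770201-45771100, Z-score -1.32, percentile 11.4) reached 836 bp upstream of the tract and ended 4 bp beyond it, and another of 1800 bp (Z-score -0.25) began 604 bp downstream of the tract, over the SIX5 start. The origin over the start of DMPK itself was the least efficient of the 21 (chr19:45779101-45782600, 3500 bp, efficiency 0.81) and had no 15-minute counterpart. Farther upstream, the origin over the start of the neighbouring DMWD gene (600 bp) had an efficiency of 0.95 and a Z-score of 1.70, the highest Z-score of the 12 origins. In SNS-seq the peaks over the tract were 2651 and 10246 bp long.

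FMR1, whose product FMRP regulates translation at synapses, is silenced when its CGG tract expands fully. It was the 1 gene of the 9 with no 3-hour origin. The nearest lay 1.62 Mb downstream and 4.28 Mb upstream of the tract, so that the gene sat in a stretch of 5.89 Mb without any. After 15 minutes, however, an origin of 600 bp (chrX:147911801-147912400) covered the tract, the canonical start and the start of FMR1-AS1. It reached 250 bp upstream and 290 bp downstream of the tract, and its Z-score was 0.38, at percentile 62.2. The next 15-minute origins were 1.59 Mb downstream and 4.28 Mb upstream. SNS-seq peaks of 1804 and 2549 bp covered the same site, and FMR1 had only 1 and 2 peaks in these fractions. Of all 15-minute origins 4.89% overlapped no 3-hour origin, and of the 226 on chromosome X 19.5% did so. FMR1 was thus one of 44 such origins on that chromosome. AFF2, another repeat disease gene on chromosome X, had no origin in either ini-seq 2 list.

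C9orf72 encodes a protein of endosomal and autophagy pathways, and its hexanucleotide tract lies between alternative first exons, 65 bp upstream of the canonical start and 320 bp downstream of the 5′ end of the gene record. At 15 minutes an origin of 400 bp (chr9:27573201-27573600) covered the tract and the canonical start, with a Z-score of 0.38 at percentile 62.3. It reached 54 bp upstream of the tract and 328 bp downstream. At 3 hours the origin was also 400 bp long but lay downstream (chr9:27572901-27573300), sharing 100 bp with the earlier one. Its nearest edge was 228 bp from the tract, and its efficiency was 0.86, in the medium class at percentile 43.3. SNS-seq peaks of 1585 and 1676 bp spanned both positions. In the reference sequence printed above, the tract forms part of a G4 motif on the sense strand, defined as 4 runs of at least 3 G separated by 1 to 7 bases and searched on both strands. None of the other 8 tracts overlapped such a motif. The next 3-hour origin upstream of the tract was 616 kb away.

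**Figure D3:**
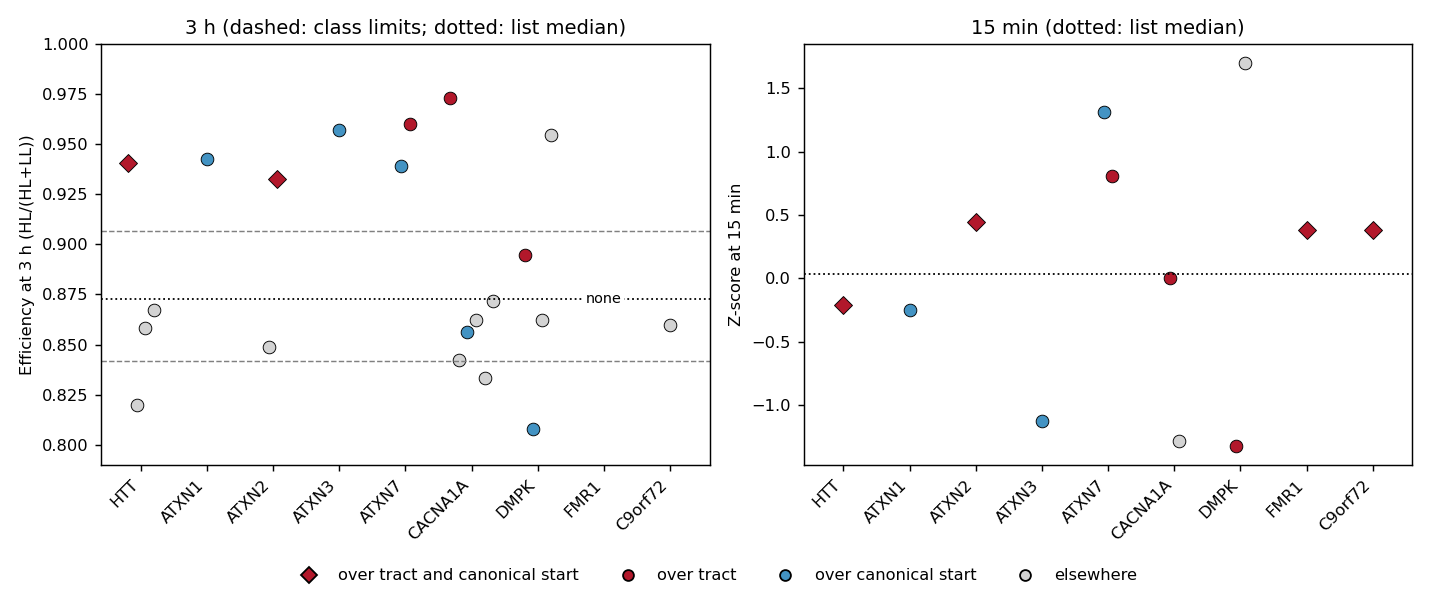
Efficiency of each 3-hour origin (left) and Z-score of each 15-minute origin (right) assigned to the 9 genes, with 1 point per origin and no error bars because each list holds 1 value per origin. Red points cover the tract (diamonds also the canonical start), blue points the canonical start alone and grey points neither. Dashed lines are the class limits of 0.842 and 0.907 and dotted lines the list medians of 0.873 and 0.03. At 3 hours 4 of the 5 red points lie above the upper class limit, and 10 of the 11 grey points lie below it. Of all 3-hour origins on a canonical start of a protein-coding gene 58.4% lie above it, and no such share was computed for origins on tracts.

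Among the 21 origins of the 3-hour list, 10 covered a tract, a canonical start or both. Their median efficiency was 0.94 (range 0.81 to 0.97), with 7 in the high class, and they included the least efficient of the 21, at the DMPK start. The 11 origins that covered neither had a median efficiency of 0.86 (range 0.82 to 0.95, overlapping the former), with 1 in the high class, which was the origin at the DMWD start. Among all 3-hour origins on a canonical start of a protein-coding gene, 58.4% were in the high class, which compares with 5 of the 7 here. As 1 of 3 classes of equal size, the high class is a smaller share of the whole list than of these. A higher class at canonical starts was thus general, and the difference between the 10 and the 11 is not read as particular to these genes. No share in the high class was computed for all origins on tracts. The 15-minute Z-scores gave another order. Over the tracts they ran from -1.32 in DMPK to 0.81 in ATXN7, with a median of 0.38, and 4 of 7 were above the list median of 0.03. The origin with the highest efficiency, that of CACNA1A, was in the middle of the 15-minute list, and that of ATXN3 near its bottom. The scales differ between the lists, and levels were compared only within a list.

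The 15-minute origins overlapped a 3-hour origin in 11 of 12 cases, with FMR1 as the exception. In 9 of these 11 pairs the 3-hour origin was the longer, and the other two, DMWD and C9orf72, were of equal length. Over all 9774 overlapping pairs of the lists, the 3-hour origin was the longer in 86.2%, with a median length ratio of 1.5. In 7 of the 11 pairs the ratio lay between 1.10 and 1.39. Only 2 pairs exceeded the general median, the origin upstream of the CACNA1A tract (ratio 4) and that on the DMPK tract (ratio 7.56). The long DMPK origin also spanned the 15-minute origin of 1800 bp over the SIX5 start. That origin was not assigned to DMPK and does not enter the ratio.

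To set the tracts beside others of the same kind, perfect runs of the same units were searched on both strands of the genome. For coding sequence, 29.4% of 85 CAG or CTG tracts of at least 8 units touched a 3-hour origin and 20% touched a 15-minute origin, and 41.2% and 55.3% touched a peak of the shorter and the longer SNS-seq fraction. Of the 6 polyglutamine genes 4 had the tract in an origin at each time and 5 in a peak of each fraction. Without the runs of these genes the shares were 26.0% of 77 at 3 hours and 15.6% at 15 minutes. For the DMPK repeat, all 310 CAG or CTG tracts of the genome can be used, of which 11.0% touched a 3-hour origin, 8.06% a 15-minute origin, and 16.8% and 25.2% an SNS-seq peak. For the FMR1 repeat, 96 CGG or CCG tracts of at least 10 units were found. Of these, 52.1% touched a 3-hour origin and 63.5% a 15-minute origin, with 77.1% and 84.4% in SNS-seq peaks. The 110 GGGGCC tracts of at least 3 units gave 59.1% and 60.9%, with 66.4% and 81.8% in SNS-seq peaks. Touching an origin at 15 minutes, as FMR1 and C9orf72 did, was thus the state of most tracts of their repeat units, whereas most CAG and CTG tracts touched none.

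**Figure D4:**
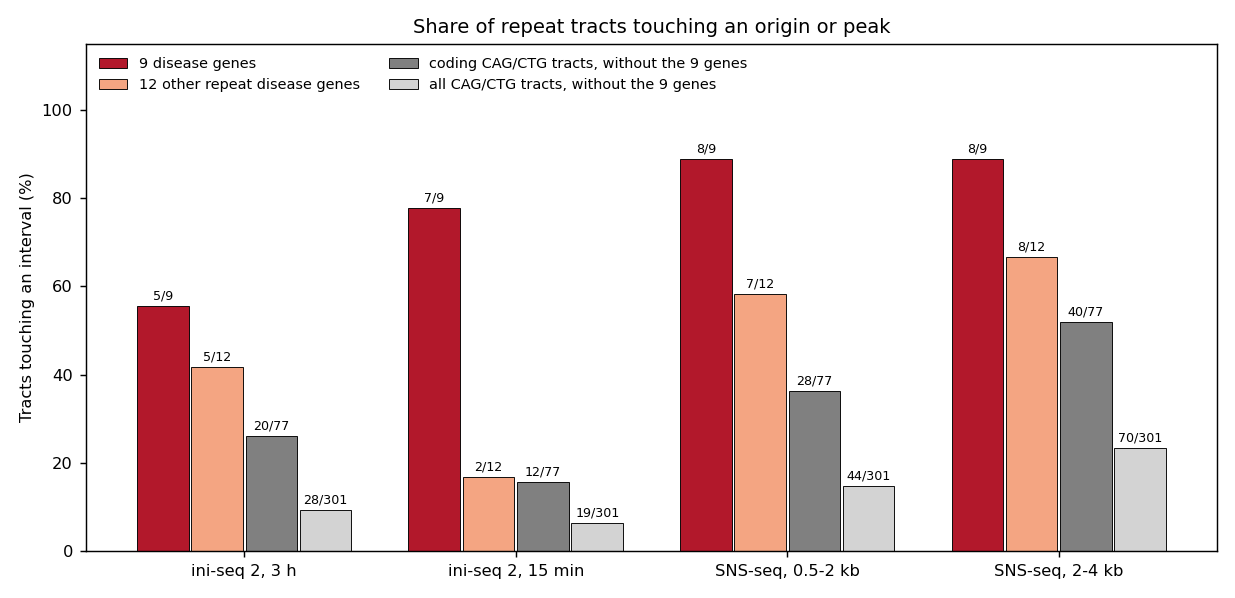
Share of repeat tracts (%) touching an interval of each list, with the number touching and the number of tracts above each bar. Bars give the 9 disease genes, 12 other repeat disease genes, coding CAG or CTG tracts and all CAG or CTG tracts of at least 8 units, both of the latter without the runs of the 9 genes. Both of the latter count perfect runs, and an interrupted tract can hold several. Some tracts of the 12 genes are also among the coding and genome-wide tracts. At 3 hours 5 of the 9 tracts touched an origin, against 5 of 12 and 20 of 77, and at 15 minutes 7 of the 9, against 2 of 12 and 12 of 77. The 9 include units other than CAG and CTG, and of the 6 coding CAG tracts among them 4 touched an origin at each time.

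Base composition was measured at the disease gene tracts and in genomic 1 kb windows, but not at the other repeat tracts counted above. The share of such windows that overlapped an origin differed with their GC content. The tracts of HTT, ATXN7 and FMR1 lay in 1 kb of 72%, 71.9% and 70.9% GC, and of all genomic 1 kb windows with 70% to 75% GC 76.6% overlapped a 3-hour origin and 73.4% a 15-minute origin. ATXN2 (78.8%) fell in the step of 75% to 80%, with shares of 72% and 76.1%. ATXN1 (66.5%), CACNA1A (67.9%) and DMPK (65.5%) fell in the step of 65% to 70%, where the shares were 67.3% and 35.3%, and C9orf72 (63.1%) in that of 60% to 65%, where they were 36.3% and 10.6%. ATXN3 fell in the step of 40% to 45%, where 0.101% of windows overlapped a 3-hour origin. ATXN1 at 3 hours and FMR1 at 3 hours thus lacked an origin at a composition where most windows overlapped one. At 15 minutes C9orf72 had one where 10.6% of windows did, and CACNA1A and DMPK had one where 35.3% did. The measures differ, since a window counts any overlap within its 1 kb and a tract only an origin that it touches. The 1 kb centred on the C9orf72 tract also overlapped its 3-hour origin, 228 bp from the tract. The part of base composition in the counts of tracts was not tested. Of the 21 origins at 3 hours 16 held a G4 motif, and 11 of 12 did at 15 minutes, while 71.0% and 79.9% of all origins of these lists did.

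The side of the nearest origin could be read for 4 genes at 3 hours, since the other 5 tracts lay inside one. In ATXN1, ATXN3, FMR1 and C9orf72 the nearest 3-hour origin was downstream of the tract, at 147 kb, 30.7 kb, 1.62 Mb and 228 bp. No tract had its nearest 3-hour origin upstream. With the 15-minute list this held for ATXN1 (88.7 kb downstream), whereas the nearest origin to the ATXN3 tract was upstream, at the start of the gene. At 3 hours the upstream origin of ATXN3 was at 35.2 kb, close to the distance on the other side. Where a tract lay inside an origin, the centre of the 3-hour origin was upstream of the tract in HTT (by 657.5 bp) and ATXN7 (by 200 bp) and downstream in ATXN2 (by 34.5 bp), CACNA1A (by 227.5 bp) and DMPK (by 1934 bp). Because these tracts lie inside the origins, the offsets cannot exceed the lengths of the origins.

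Another 12 genes of repeat expansion disorders, whose tracts are of trinucleotide or tetranucleotide units, were counted in the same way. Their tract touched a 3-hour origin in 5 of 12 genes (ATN1, THAP11, GIPC1, DIP2B and PPP2R2B), a 15-minute origin in 2 of 12 (GIPC1 and DIP2B), and an SNS-seq peak in 7 and 8 of 12. No gene of these 12 had the pattern of FMR1 and C9orf72, with the tract in a 15-minute origin but in none at 3 hours. The pattern was not particular to these genes. Without FMR1, 60 of 95 CGG or CCG tracts touched a 15-minute origin and 50 a 3-hour origin. Without C9orf72, 66 and 65 of 109 GGGGCC tracts did, so other tracts of both units had the pattern. The reverse, a tract in a 3-hour origin but in none at 15 minutes, was seen in ATN1, THAP11 and PPP2R2B and in none of the 9 genes. It also occurred in other coding CAG or CTG tracts, such as those of KCNN3 and TNS1. Of the 77 such tracts outside the 9 genes, 20 touched a 3-hour origin and 12 a 15-minute origin. The GIPC1 and DIP2B tracts are CGG repeats in 5′ untranslated regions, as in FMR1, while the AFF2 tract, a CCG repeat in a 5′ untranslated region, touched no ini-seq 2 origin at either time.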

How the data were processed

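Single reads of 50 nt were mapped on hg38 by the authors (Bowtie2), who discarded duplicates and reads with more than 1 position, compared HL and LL reads in 100 bp windows, joined windows within 500 bp and kept intervals from an efficiency of 0.8 upwards. The number deposited with each 3-hour origin is this efficiency, a fraction from 2 pooled biological replicates, although the column heading reads Z-score. The authors deposited a score with each 15-minute origin, standardised over that list (a Z-score), and its replication is not given in the sources used here. The authors called SNS-seq peaks with MACS2 against EJ30 genomic DNA, and these lists give positions only. That library was not used here. Because reads were short and uniquely aligned, a repeat tract may hold few reads of its own, and an interval over it can rest on reads from its flanks.

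Genes, exons and canonical transcripts came from GENCODE 44, and tracts and base composition from the hg38 sequence. A tract is the longest perfect run of its unit in the named part of the gene, extended over units with 1 changed base. Overlap means at least 1 bp and distance is counted edge to edge. Percentiles are mid-ranks, giving the share of the list with a lower value and placing tied values at their middle. All 9 genes are named, neighbouring genes where an origin covers their start, and the other disease genes where a result turns on them. The genes and lists were chosen with earlier results of these data known. There is 1 list per condition, so no test was run. Overlap, nearest-interval and tract searches were tested on simulated data. Python 3.11.15, numpy 2.4.6, pandas 2.3.3 and pysam 0.24.0 were used. Alternatives were other reaches, the canonical start, other overlap distances, single SNS-seq fractions, centres and a higher efficiency limit.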

Additional observations from a re-analysis of the deposited data

How the results depend on the processing

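Of 25 alternatives, 18 left a count within 1.5 times its value or a median unchanged at 3 significant digits. The counts of genes with an origin did not move when the reach was 5 kb, 20 kb or the gene record alone, the count of tracts in an SNS-seq peak did not move with either fraction or a distance of 1 or 5 kb, and that in a 15-minute origin did not move with these distances. With an origin allowed within 1 or 5 kb, 6 tracts in place of 5 had a 3-hour origin, C9orf72 being added. The other 7 moved. The gene's 5′ end lay in a 3-hour origin in 4 genes, against 7 at the canonical start and 7 with an origin within 1 kb. No tract had its nearest 3-hour origin upstream by edges, 2 did by centres, and 1 did with 15-minute origins. The median distance from tract to nearest 3-hour origin was 0 bp by edges, 657.5 bp by centres and 22136 bp to origins with an efficiency of at least 0.9. The median efficiency of the nearest origin was 0.93, and 0.95 for the most efficient origin of each gene. No paired analysis was possible because each condition has 1 list and no result comes from a test. Tract lengths in EJ30, and the depth behind each interval, limit every statement on a tract.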
